A study of Saccharomyces cerevisiae with 8 samples.

Results

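The Tfg1-K60,61R-HA strain was compared with its untagged ancestor, W303a, over all genes of budding yeast that could be tested, to measure the total distance in mRNA levels between a strain with impaired sumoylation of Tfg1 and the wild type. The comparison used 4 of the 8 RNA-seq libraries, 2 of each strain, and covered 5909 of 6120 counted genes. The other 4 libraries, 2 of Tfg1-HA and 2 of *ubc9-6*, entered the fit to estimate the spread between replicates. W303a is a haploid strain of mating type a with the *ura3*, *trp1*, *leu2*, *his3*, *ade2* and *can1* marker mutations, which the other strains received from it. Tfg1-HA carries an HA tag on Tfg1 at its own locus beside the *TRP1* gene of *Kluyveromyces lactis*. Tfg1-K60,61R-HA carries the same tag and marker, has Arg in place of the 2 lysines that its name gives, and carries a further inadvertent substitution elsewhere in Tfg1. *ubc9-6* holds tandem copies of a mutant gene for the SUMO-conjugating enzyme with *TRP1*. All cultures were growing in SC medium at 30°C, in mid-log phase. W303a and Tfg1-K60,61R-HA therefore differ by the tag, the marker and the substitutions together, and their effects cannot be told apart from these 4 libraries alone. The labels do not say whether these strains were grown and prepared in the same set. Any difference between such sets cannot be told apart from the strains either.

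Tfg1 is the largest subunit of TFIIF, the general transcription factor that travels with RNA polymerase II (RNAPII) into the preinitiation complex, stabilizes it and takes part in choosing the transcription start site. SUMO is a small protein that is attached to lysines of other proteins by the conjugating enzyme Ubc9 and removed by the proteases Ulp1 and Ulp2, and many of its targets are bound to chromatin. Steady-state mRNA reflects both synthesis and decay. No external RNA standard was used here, and the values are relative to the library, so an equal shift of every mRNA is not seen.

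The total counts were 26674458 and 34476269 for W303a and 32367145 and 26683432 for the mutant, and over all 8 libraries they lay between 26674458 and 34614232. Levels are in CPM, the usual per-million scaling of counts, with library sizes adjusted by TMM, replicate 1 first and replicate 2 second. The summed level of 6 genes of mating type a lay between 1413 and 1433 CPM in W303a and between 1424 and 1578 CPM in the mutant, whereas 4 genes of mating type alpha summed to 40.9 to 44.7 and 31.1 to 35.2 CPM. The sum of 5 sporulation genes was 48.4 to 48.8 CPM in W303a and 37.7 to 44.1 CPM in the mutant. The sum of 5 genes of stationary or stressed cells was 422 to 430 CPM in W303a against 1478 to 2009 CPM in the mutant, with 1581 to 1693 CPM in Tfg1-HA. *HSP12* made up most of this sum in W303a and the mutant. Of the others, *HSP26*, *DDR2* and *CTT1* were higher in the mutant, whereas *SPI1* went the other way (log2 fold change −0.38, adjusted p = 0.187, edgeR).

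Replicate 1 of Tfg1-K60,61R-HA stood apart from every other library. Between the mutant replicates, 31 genes with at least 5 CPM in one of them differed more than 2-fold, 26 being higher in replicate 1. Within the other strains, 3 to 13 genes did so. The genes with the widest gaps encode proteins that yeast makes when oxygen or heme is short. *TIR1*, for a cell wall mannoprotein, was at 1.22 and 1.06 CPM in W303a, 1.18 and 1.25 in Tfg1-HA, and 330 and 1.45 in the mutant. *DAN1*, for another such mannoprotein, was at 55.5 and 0.268 CPM in the mutant and at no more than 0.766 CPM in any other library. *ANB1*, the low-oxygen form of translation factor eIF5A, was at 118 and 0.765 CPM in the mutant, against 1.95 and 1.56 in W303a. A list of 16 low-oxygen genes was drawn up after this was seen. Replicate 1 of the mutant was the highest of the 8 libraries for all of them but *DAN4*, *PDR11*, *ROX1* and *OLE1*. Of the list, 7 genes were called higher and 2 lower than in W303a, or 56.2% beside 49.4% of all genes. Without replicate 1 of the mutant, 1 was called higher and 3 lower. Among the 153 genes described next as beyond 1.5-fold, none belonged to this list.

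**Figure D1:**
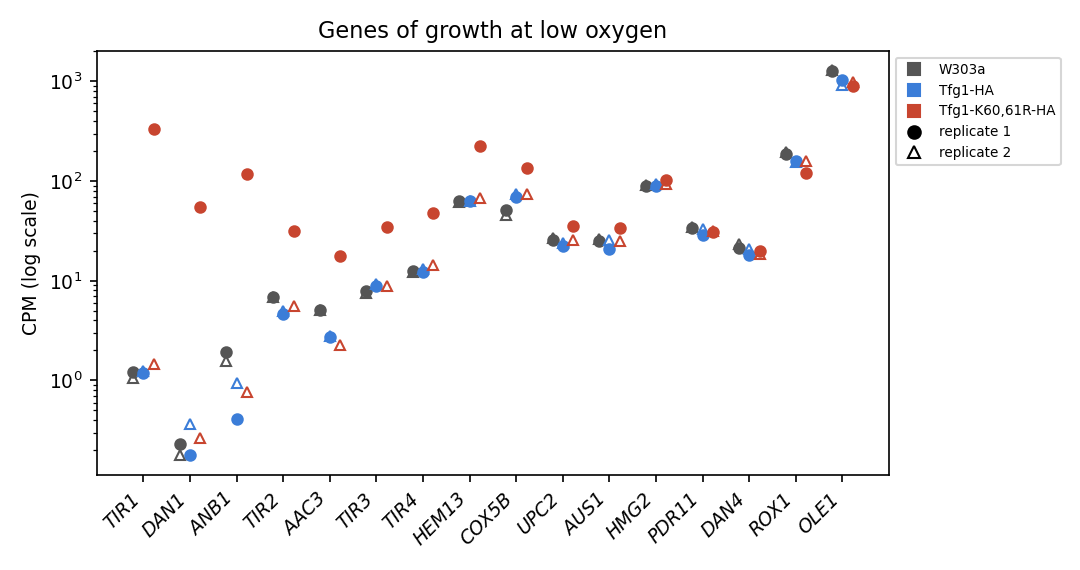
Levels of the 16 low-oxygen genes in W303a, Tfg1-HA and Tfg1-K60,61R-HA, as CPM on a log axis, with a filled circle for replicate 1 and an open triangle for replicate 2. Replicate 1 of the mutant lies at 330 CPM for TIR1, 55.5 for DAN1 and 118 for ANB1, and replicate 2 at 1.45, 0.268 and 0.765.

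The distance between libraries was measured as the root mean square (RMS) difference of log2 CPM over the 5909 genes. The 4 pairs of a W303a and a Tfg1-K60,61R-HA library lay 0.449 ± 0.057 apart (mean and SD over the 4 pairs, which share libraries), and on average 201.5 genes differed more than 2-fold within a pair. The 2 replicates of W303a were 0.159 apart, and those of the mutant 0.294. Replicate 1 of the mutant was 0.498 from W303a on average and replicate 2 was 0.400, so both libraries lay farther from W303a than the mutant replicates lay from each other. Tfg1-HA was 0.393 from W303a. From Tfg1-HA to Tfg1-K60,61R-HA the mean distance was 0.232. Replicate 2 of the mutant was 0.172 from the Tfg1-HA libraries, close to the 0.175 between the replicates of Tfg1-HA, and replicate 1 was 0.292 from them. *ubc9-6*, for scale, was 0.329 from W303a. In a principal component analysis the first component held 55.4% of the variance. It placed the W303a libraries at −13.6 and −15.3, the Tfg1-HA libraries at 12.1 and 11.1 and the mutant at 18.0 and 12.6. These distances are descriptions with no test.

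**Figure D2:**
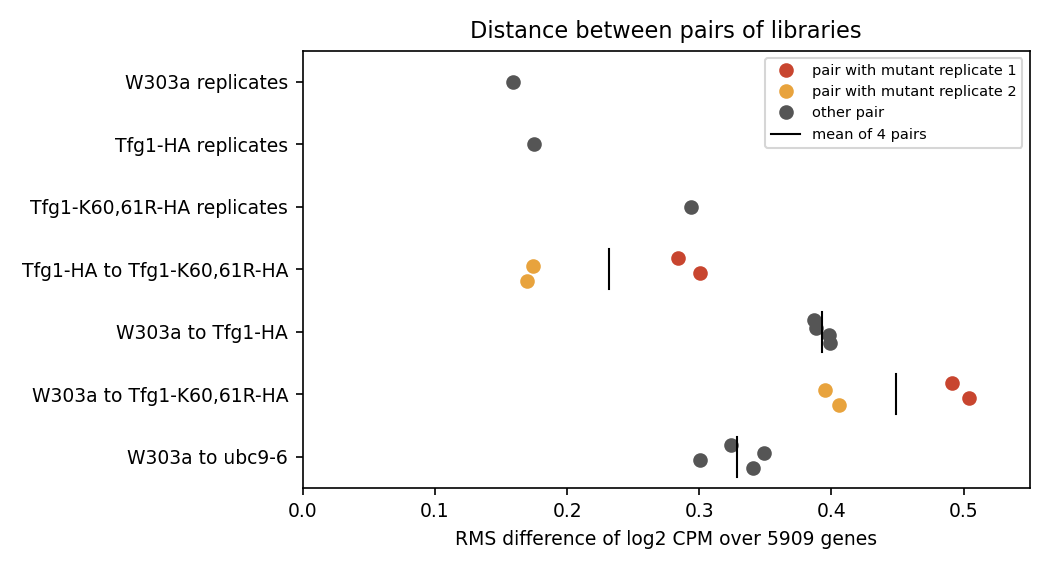
RMS difference of log2 CPM for each pair of libraries, grouped by the strains of the pair; each point is 1 pair and the vertical line is the mean of 4 pairs. The W303a to Tfg1-K60,61R-HA pairs lie between 0.395 and 0.504, above the 0.159 and 0.294 between replicates of the same strains, and the pairs of Tfg1-HA with mutant replicate 2 lie at 0.170 and 0.174.

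At an adjusted p under 0.05 in edgeR's quasi-likelihood test, 2922 genes (49.4% of those tested) differed between Tfg1-K60,61R-HA and W303a, of which 1474 (24.9%) were higher and 1448 (24.5%) lower in the mutant. Most of these differences were small. Among the genes that were higher, 449 differed by less than 1.2-fold, 625 by 1.2- to 1.5-fold, 265 by 1.5- to 2-fold, 113 by 2- to 4-fold and 22 by more. Among those that were lower, the numbers were 565, 703, 141, 33 and 6, respectively. The log2 fold changes over all genes had an SD of 0.447, with 5th and 95th percentiles of −0.50 and 0.71, and 95% confidence intervals had a median half-width of 0.14. In 4391 genes (74.3%) the W303a and mutant libraries did not overlap. At an unadjusted p under 0.05 there were 3337 genes (56.5%). The 95% confidence interval lay wholly within 1.5-fold for 4477 genes (75.8%).

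When the test asked whether the difference exceeded 1.5-fold (edgeR's glmTreat on the same fit), 153 genes (2.59%) were called, 118 higher (2%) and 35 lower (0.592%). Larger changes were thus more often upward, while over all calls the directions were nearly equal in number. These 153 genes held 33.2% of the summed squared log2 fold change over all genes, the other 2769 called genes held 56.5%, and the 2987 genes that were not called held 10.3%. The 16 low-oxygen genes, which are not among the 153, held 11.7%. Without replicate 1 of the mutant those 16 genes held 0.394%, and the 2769 genes held 46.8%. Without replicate 1 of the mutant 131 genes were called beyond 1.5-fold and 2546 at all. Without replicate 2 of the mutant the number beyond 1.5-fold was 260. Leaving out replicate 1 or replicate 2 of W303a gave 99 and 87, and such fits assume that the lone library varies like the other strains. The share called grew with level, from 36.4% in the lowest of 4 equal bins of genes by mean count to 57.3% in the highest.

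**Figure D3:**
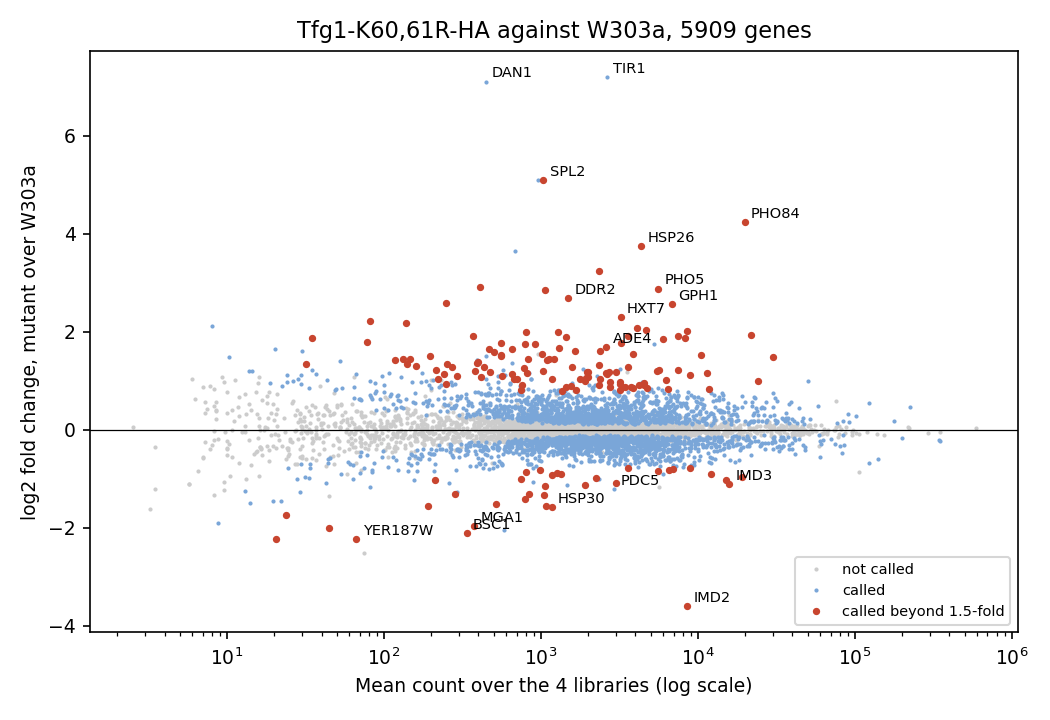
Log2 fold change of Tfg1-K60,61R-HA over W303a against the mean count of the 4 libraries on a log axis, for 5909 genes; colors mark genes that were not called, were called, and were called beyond 1.5-fold. SPL2 lies highest at 5.10 among the 153 genes beyond 1.5-fold and IMD2 lowest at −3.59, while TIR1 and DAN1 lie above them without being called beyond 1.5-fold.

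Short genes tended to be higher and long genes lower in the mutant. The median log2 fold change went down over 4 bins of gene length from 0.12 (78 to 690 bases) through 0.046 and −0.033 to −0.12 (1890 to 14733 bases). In the shortest bin 544 genes were called higher and 127 lower, and in the longest 199 and 638. Both mutant libraries showed it, with medians of 0.16 and 0.092 for the shortest genes and −0.15 and −0.094 for the longest, and Tfg1-HA showed it against the same W303a libraries, with 0.087 and −0.084. In *ubc9-6* the medians of the shortest and longest bins were 0.013 and 0.004. When each library's trend with length and GC content was removed, 2814 genes were called, 2287 of them also called before, and 127 were called beyond 1.5-fold. The part of RNA quality or library preparation in this trend was not tested. The sign of the median changed without the trend for 6 gene lists: cytosolic ribosomal proteins, histones, Ty genes, the marker genes, the TFIIF subunits and aromatic amino acid synthesis. Medians over the chromosomes lay between −0.028 for chromosome XIV and 0.065 for chromosome III.

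The altered gene itself was slightly lower in the mutant. *TFG1* (chromosome VII, 867774 to 869981 of sacCer3) was at 196 and 201 CPM in W303a and at 160 and 161 CPM in the mutant (log2 fold change −0.30, SE 0.04, 95% confidence interval −0.40 to −0.21, adjusted p = 0.00063, edgeR). Tfg1-HA was in between at 172 and 167 CPM. The tag lies beside a foreign marker, and counts over the coding exons do not show the protein made. The median of the 3 TFIIF genes was 0.067, and −0.009 without the length and GC trend. For the other TFIIF subunits the difference was not called, with 129 and 130 against 146 and 131 CPM for *TFG2* and 142 and 140 against 146 and 150 CPM for *TAF14*. The substitutions cannot be seen in counts per gene, so these levels do not check the label of the mutant. Among 44 genes of RNAPII and the general factors, 10 were higher and 11 lower, or 47.7% beside 49.4% of all genes. Their median was −0.01 beside 0.00 over all genes. *TAF1* (−0.32) and *TAF2* (−0.32), for TFIID subunits, were lower, and *RPB11* (0.33), for a small RNAPII subunit, was higher. Without the length and GC trend 0 genes of this list were called higher and 11 lower.

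Of 14 SUMO pathway genes, 4 were higher and 7 lower, or 78.6% beside 49.4% of all genes. Without the length and GC trend 2 were higher and 6 lower, when 2814 of all genes were called. *SMT3*, which encodes SUMO, was at 175 and 175 CPM in W303a and at 212 and 187 CPM in the mutant (log2 fold change 0.19, adjusted p = 0.032, edgeR), and the call was lost without replicate 1 of the mutant. Without the length and GC trend the direction of *SMT3* turned, to −0.026 (adjusted p = 0.632, edgeR). *UBC9* was at 74.1 and 75.6 against 82.5 and 83.2 CPM (0.15). The ligase genes *SIZ1* (−0.31) and *MMS21* (−0.47), the SUMO protease gene *ULP1* (−0.31) and *ULS1* (−0.28), a translocase that binds sumoylated proteins, were lower. Each of these differences was below 1.5-fold.

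Of the 6 marker genes 2 were higher and 2 lower, or 66.7% beside 49.4% of all genes. Their median was 0.122, or −0.058 without the length and GC trend. *TRP1*, for an enzyme of tryptophan synthesis, was at 13.9 and 14.8 CPM in W303a, 18.2 and 18.0 in Tfg1-HA and 19.0 and 18.3 in the mutant, and at 351 and 366 CPM in *ubc9-6*, whose marker is *TRP1* itself. The marker in the Tfg1 strains comes from another yeast, and how much of it was counted on the *TRP1* of *S. cerevisiae* was not tested.  Of 13 genes of aromatic amino acid synthesis 4 were higher and 3 lower, or 53.8% beside 49.4% of all genes. Their median was 0.025, or −0.02 without the trend. Among these genes were *TRP4* (0.23), *ARO3* (−0.20) and *ARO4* (−0.21). *CAN1*, for the arginine permease, was at 211 and 205 CPM in W303a and 168 and 163 in the mutant (−0.33), and *LEU2* was at 282 and 283 against 215 and 210 CPM (−0.41). *ADE2* was higher (0.33), a call lost without replicate 1 of the mutant. *URA3* and *HIS3* were not called, and their libraries overlapped. *HIS3* was at 30.6 and 31.1 CPM in W303a and 41.2 and 29.8 in the mutant.

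Among the genes called beyond 1.5-fold the widest difference was in the PHO regulon, the genes that the transcription factor Pho4 turns on when phosphate is short, when the kinase Pho85 no longer keeps it out of the nucleus. Pho4 binds the letters CACGTG. All 22 genes of this list were called, beside 49.4% of all genes, 21 higher and 1 lower, and 13 were called higher beyond 1.5-fold. Their median log2 fold change was 1.70, and they made up 0.372% of the genes and held 9.81% of the summed squared log2 fold change. Upstream of the coding sequence, these windows from 300 to 101 bases before the start codon (sacCer3, RefSeq annotation) show CACGTG in capitals for those of the 15 highest called genes without a near-identical copy that hold it there:
SPL2, chrVIII:375201-375400, minus strand: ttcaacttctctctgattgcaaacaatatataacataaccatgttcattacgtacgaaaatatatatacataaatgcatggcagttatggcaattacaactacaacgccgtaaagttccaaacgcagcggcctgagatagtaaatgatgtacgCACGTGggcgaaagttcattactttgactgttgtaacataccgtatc
PHO5, chrII:431052-431251, minus strand: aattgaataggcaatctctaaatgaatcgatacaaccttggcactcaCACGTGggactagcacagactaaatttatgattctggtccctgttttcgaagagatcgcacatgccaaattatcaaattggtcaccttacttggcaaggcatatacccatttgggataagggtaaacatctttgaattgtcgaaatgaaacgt
PHM6, chrIV:1022422-1022621, minus strand: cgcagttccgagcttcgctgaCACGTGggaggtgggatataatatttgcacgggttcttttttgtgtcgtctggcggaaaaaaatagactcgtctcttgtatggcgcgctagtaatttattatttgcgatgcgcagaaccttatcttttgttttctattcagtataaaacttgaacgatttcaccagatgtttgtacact
The motif starts 147 bases before the start codon of *SPL2*, 253 before that of *PHO5* and 279 before that of *PHM6*. *PHO84*, *PHO89* and *GIT1*, also among these 15 genes, do not hold these letters in this window. In the 300 bases before the start codon, 11 of the 22 promoters of the list (50%) had CACGTG, against 3.55% of 5894 promoters of tested genes.

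*SPL2* (chromosome VIII, 374654 to 375100), which encodes an inhibitor of low-affinity phosphate uptake, was at 1.80 and 2.15 CPM in W303a, 53.1 and 28.3 in Tfg1-HA and 84.1 and 52.5 in the mutant. This is a log2 fold change of 5.10 (SE 0.39, 95% confidence interval 4.21 to 5.99, adjusted p = 5.2e-05, edgeR), and 4.71 without replicate 1 of the mutant. *PHO84* (chromosome XIII, 24037 to 25800), the high-affinity phosphate transporter, was at 56.4 and 80.4 CPM in W303a, 1225 and 626 in Tfg1-HA and 1459 and 1119 in the mutant (4.23, SE 0.33). The lowest mutant library was far above the highest W303a library for both genes, and libraries apart were a condition for naming them among the highest. *GIT1* (3.23), a transporter of glycerophosphoinositol on chromosome III near its end, was at 15.1 and 15.8 CPM in W303a against 159 and 132 in the mutant. *PHO5* (2.88), the secreted acid phosphatase, was at 42.0 and 49.7 CPM in W303a and 347 and 330 in the mutant. *PHO89*, a sodium-coupled phosphate transporter, was at 2.64 and 3.84 CPM in W303a, and in the mutant at 68.1 in replicate 1 and 14.2 in replicate 2. Its log2 fold change was 3.65, and 2.11 without replicate 1 of the mutant (adjusted p = 0.0079, edgeR).

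The intracellular side of the regulon moved in the same direction. *VTC1* (1.87), *VTC3* (2.02) and *VTC4* (1.53), for subunits of the vacuolar polyphosphate polymerase, were higher, as was *PHO81* (0.97), the inhibitor of Pho85. *PHO11* (2.92) and *PHO12* (2.86) encode near-identical acid phosphatases, so reads that fit both were not counted and their values are uncertain. *KCS1* (−0.21), for an inositol pyrophosphate kinase, was the lower member. *PHO4* itself, which is not on the list, was at 56.1 and 54.0 CPM in W303a and 48.7 and 51.4 in the mutant (−0.14). In Tfg1-HA against the same W303a libraries the list's median was 1.35, with 21 genes higher and 1 lower. Directly between Tfg1-HA and the mutant, 0 of the 22 genes were called (edgeR), the median difference was 0.29, and for *SPL2* it was 0.75 (95% confidence interval 0.11 to 1.40, adjusted p = 0.48).

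**Figure D4:**
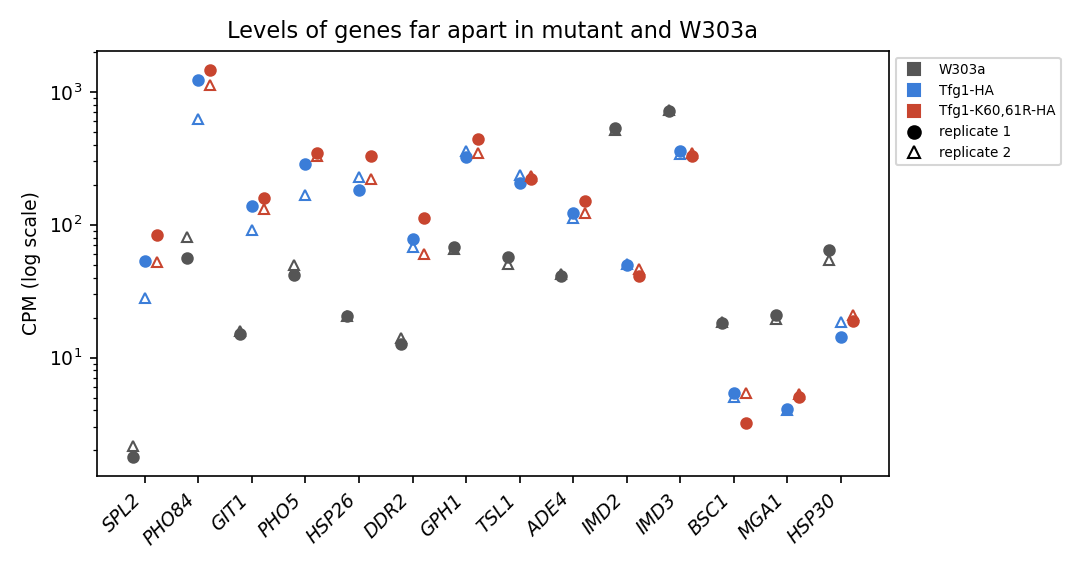
Levels of 14 genes from the lists and the highest and lowest genes, as CPM on a log axis, in W303a, Tfg1-HA and Tfg1-K60,61R-HA, with a filled circle for replicate 1 and an open triangle for replicate 2. The W303a libraries lie apart from the mutant libraries for each gene. This was a condition for choosing the highest and lowest genes, and 74.3% of all genes met it. SPL2 lies at 1.80 and 2.15 against 84.1 and 52.5 CPM, and IMD2 at 536 and 520 against 40.9 and 46.6 CPM.

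Genes of the environmental stress response, which the transcription factors Msn2 and Msn4 turn on in starved or stressed cells through the letters AGGGG, formed the next group. Of 53 genes on the list, 44 were higher, 24 of them beyond 1.5-fold, 2 were lower and 7 were not called. Called members made up 86.8%, beside 49.4% of all genes. The median was 0.91, and the counts without replicate 1 of the mutant were again 44 and 2. Capitals mark AGGGG on either strand, from 300 to 101 bases before the start codon, for genes of this list among the same 15 genes and for *HSP12*, chosen after its value was seen:
DDR2, chrXV:231856-232055, minus strand: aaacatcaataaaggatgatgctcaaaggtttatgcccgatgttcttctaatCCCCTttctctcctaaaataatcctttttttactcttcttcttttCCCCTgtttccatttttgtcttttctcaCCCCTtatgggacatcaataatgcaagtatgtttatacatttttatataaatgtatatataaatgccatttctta
TSL1, chrXIII:70324-70523, plus strand: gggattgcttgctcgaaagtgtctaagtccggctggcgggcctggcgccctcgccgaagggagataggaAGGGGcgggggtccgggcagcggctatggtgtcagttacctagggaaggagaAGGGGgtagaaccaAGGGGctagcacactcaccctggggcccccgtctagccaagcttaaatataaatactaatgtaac
ALD4, chrXV:1039540-1039739, plus strand: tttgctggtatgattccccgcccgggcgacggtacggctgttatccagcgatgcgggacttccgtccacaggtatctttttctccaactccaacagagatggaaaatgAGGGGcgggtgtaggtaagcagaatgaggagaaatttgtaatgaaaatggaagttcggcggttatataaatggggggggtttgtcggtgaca
HSP12, chrVI:106956-107155, plus strand: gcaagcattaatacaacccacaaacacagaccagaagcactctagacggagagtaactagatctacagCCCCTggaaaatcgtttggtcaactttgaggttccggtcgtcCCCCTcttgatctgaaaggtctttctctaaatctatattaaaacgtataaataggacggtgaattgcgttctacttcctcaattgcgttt
*DDR2* and *TSL1* hold 3 matches each in this window, *HSP12* holds 2 and *ALD4* holds 1, and *GPH1* holds none. In the 300 bases before the start codon the motif was present in 38 of 53 promoters of the list (71.7%), in 61.0% of the 118 genes higher beyond 1.5-fold, in 34.6% of all genes called higher and in 15.4% of those called lower, against 22.2% of all tested promoters.

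*HSP26* (chromosome II, 382030 to 382674), for a small heat shock protein and counted on the chaperone list, was at 20.6 and 20.7 CPM in W303a, 184 and 229 in Tfg1-HA and 332 and 220 in the mutant (log2 fold change 3.74, SE 0.21, adjusted p = 1.3e-05, edgeR). *DDR2* (2.69), a stress gene of unknown function, was at 12.6 and 14.2 CPM in W303a against 113 and 60.4 in the mutant. *HSP12* (1.94), a membrane-associated stress protein, was at 298 and 317 CPM against 1362 and 1003. For all 3 genes both mutant libraries were above both W303a libraries, and replicate 1 was the higher. The enzymes that store and use reserve carbohydrate were prominent: *GPH1* (2.57), glycogen phosphorylase, was at 67.9 and 66.1 CPM in W303a and 444 and 348 in the mutant. *TSL1* (2.09), of the trehalose synthase complex, was at 56.8 and 50.3 against 221 and 233 CPM. *PGM2* (1.91), *GSY1* (1.90), *GLC3* (1.62) and *GSY2* (1.22), for phosphoglucomutase, the glycogen synthases and the branching enzyme, were higher too. The detoxifying enzymes *CTT1* (1.77), cytosolic catalase, and *ALD4* (2.04), mitochondrial aldehyde dehydrogenase, and the glutamate decarboxylase gene *GAD1* (1.54) also rose. *HSP30*, for a plasma membrane heat shock protein, was the exception with the widest fall, at 64.6 and 54.4 CPM in W303a and 18.9 and 21.0 in the mutant (−1.57).

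The general chaperones were divided. Of 29 heat shock chaperone genes 16 were higher and 6 lower, or 75.9% beside 49.4% of all genes. Their median was 0.16. Apart from *HSP26*, the higher genes included *SSA4* (1.32), *HSP78* (1.22) and *HSP42* (0.77), which are induced by stress, and *HSP104* (0.71), the disaggregase. The constitutive Hsp70 genes *SSB1* (−0.48) and *SSA2* (−0.31) were lower. *HSP78*, at 154 and 153 CPM in W303a and 355 and 359 in the mutant, was among the 5 genes with the smallest p, together with *IMD2*, *GAD1*, *IMD3* and *TSL1*.

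Of 35 nuclear genes of the respiratory chain 32 were higher and 0 lower, or 91.4% beside 49.4% of all genes. Their median was 0.59 (0.43 without the length and GC trend, when 31 were higher). *CYC7* (1.76), the minor form of cytochrome c, was at 11.8 and 12.7 CPM in W303a and 43.8 and 39.1 in the mutant. *NDE2* (1.45), an external NADH dehydrogenase, and *ATP15* (0.85), the ATP synthase epsilon subunit, were among the others. Of 23 genes of the TCA cycle 18 were higher and 1 lower (82.6% called). Their median was 0.44, led by the succinate dehydrogenase genes *SDH4* (0.86), *SDH2* (0.82) and *SDH3* (0.79). For gluconeogenesis, the glyoxylate cycle and acetate use 9 of 21 were higher and 1 lower, a share of 47.6% beside 49.4% of all genes. *ADR1* (1.18), the activator of genes for growth without glucose, was at 41.0 and 41.1 CPM in W303a and at 91.4 and 95.1 in the mutant.

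The hexose transporters, which yeast exchanges according to the glucose supply, moved in opposite directions. *HXT7* (2.30) and *HXT6* (1.99), for high-affinity transporters that are near-identical to each other, were at 41.8 and 33.7 and at 19.6 and 15.9 CPM in W303a, against 187 and 182 and 71.7 and 68.6 CPM in the mutant. *HXT1* (−0.97), the low-affinity transporter of cells rich in glucose, was at 890 and 824 against 430 and 448 CPM. Over the list of 23 tested genes 6 were higher and 8 lower, or 60.9% beside 49.4% of all genes. Among 31 genes of glycolysis and fermentation 7 were higher and 11 lower (58.1%). Those that rose most were *HXK1* (1.91), *TDH1* (1.49) and *GLK1* (1.15), isoenzymes that cells use more when glucose is low, and *ENO2* (−0.22), for the main glycolytic enolase, was the most counted gene called lower, at 12746 and 12870 CPM in W303a and 10775 and 11184 in the mutant. *PDC5* (−1.20), a pyruvate decarboxylase gene, was at 160 and 120 against 47.6 and 74.3 CPM.

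The lowest gene with a firm count was *IMD2* (chromosome VIII, 554396 to 555967, near the chromosome end). It encodes IMP dehydrogenase, which makes the first intermediate particular to guanine nucleotides. Its expression is set by the choice of start site: with ample GTP, RNAPII starts upstream and makes a short unstable RNA, and when GTP is short it starts downstream and makes the mRNA. *IMD2* was at 536 and 520 CPM in W303a, 49.9 and 50.2 in Tfg1-HA, 40.9 and 46.6 in the mutant and 186 and 187 in *ubc9-6*. The log2 fold change of the mutant was −3.59 (SE 0.07, 95% confidence interval −3.75 to −3.44, adjusted p = 3.6e-08, edgeR), the smallest p of all genes, and −3.50 without replicate 1 of the mutant. *IMD2* has 1 near-identical copy elsewhere in the genome, and reads that fit several places were not counted. The other IMP dehydrogenase genes were lower by about 2-fold. *IMD3* was at 716 and 734 CPM in W303a and 331 and 345 in the mutant (−1.10), and *IMD4* at 712 and 670 against 309 and 370 CPM (−1.03). *GUA1* (−0.30), for the next enzyme toward GMP, was lower as well.

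The early and adenine steps of purine synthesis did not follow. *ADE4*, the first enzyme of the pathway, was at 41.5 and 42.8 CPM in W303a and 150 and 122 in the mutant (1.69, adjusted p = 1.4e-05, edgeR), with 122 and 113 CPM in Tfg1-HA. *MTD1* (0.91), of folate metabolism, and *ADE17* (0.73) were higher, *ADE17* with 341 CPM in replicate 1 of the mutant and 211 in replicate 2 beside 152 and 180 in W303a. The list of 18 purine genes also holds *IMD2*, its lowest member, so its counts cover the guanine branch too. On it 6 were higher and 5 lower (61.1% called beside 49.4% of all genes), 3 of the lower ones beyond 1.5-fold. The median was 0.098, and −0.005 without replicate 1 of the mutant. Of 13 genes of pyrimidine synthesis and uracil uptake, 0 were higher and 8 lower, or 61.5% beside 49.4% of all genes. Their median was −0.27. *URA7* (−0.57), for CTP synthase, and *FUR1* (−0.40), for uracil phosphoribosyltransferase, were at 298 and 302 and at 389 and 386 CPM in W303a, against 196 and 208 and 273 and 316 CPM in the mutant.

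Genes for making ribosomes were lower as a group, whereas the ribosomal protein genes changed little. Ribosome biogenesis, which covers processing and assembly of the ribosomal RNA in the nucleolus, had 69 of 80 genes lower and 1 higher. That is 87.5% called beside 49.4% of all genes. The median was −0.41, and 72 were lower without the length and GC trend. *DBP2* (−0.89), an RNA helicase, was at 549 and 511 CPM in W303a and 292 and 279 in the mutant. *RRP12* (−0.75) and *UTP10* (−0.75), for processing factors of the small subunit, were at 336 and 347 and at 307 and 312 CPM in W303a, against 200 and 205 and 179 and 189 CPM. Of 36 genes for RNA polymerases I and III 0 were higher and 18 lower, or 50% beside 49.4% of all genes. The largest subunits *RPA190* (−0.60) and *RPO31* (−0.60) fell most. Among 11 regulators of ribosomal protein genes 0 were higher and 6 lower, or 54.5% beside 49.4% of all genes. The lower ones included *IFH1* (−0.36), the coactivator, and *TOD6* (−0.64), a repressor of ribosome biogenesis genes.

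Of 138 genes for cytosolic ribosomal proteins, 27 were higher and 14 lower, below the 49.4% called over all genes, with a median of 0.02. Without the length and GC trend 5 were higher and 55 lower, with a median of −0.11. The members that differed most were *RPL41B* (0.38) and *RPL41A* (−0.37), which encode the same protein and share reads, *RPL22B* (−0.36) and *RPL9B* (0.34). Of 69 genes for mitochondrial ribosomal proteins 25 were higher and 0 lower (36.2% called) with a median of 0.11. Without the trend 4 were higher and 5 lower with a median of 0.00. Neither group can therefore be given a direction that holds under both treatments of gene length. Of 11 histone genes 7 were higher and 0 lower (63.6% called) with a median of 0.164, and without the trend 3 and 0 with a median of −0.006.

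**Figure D5:**
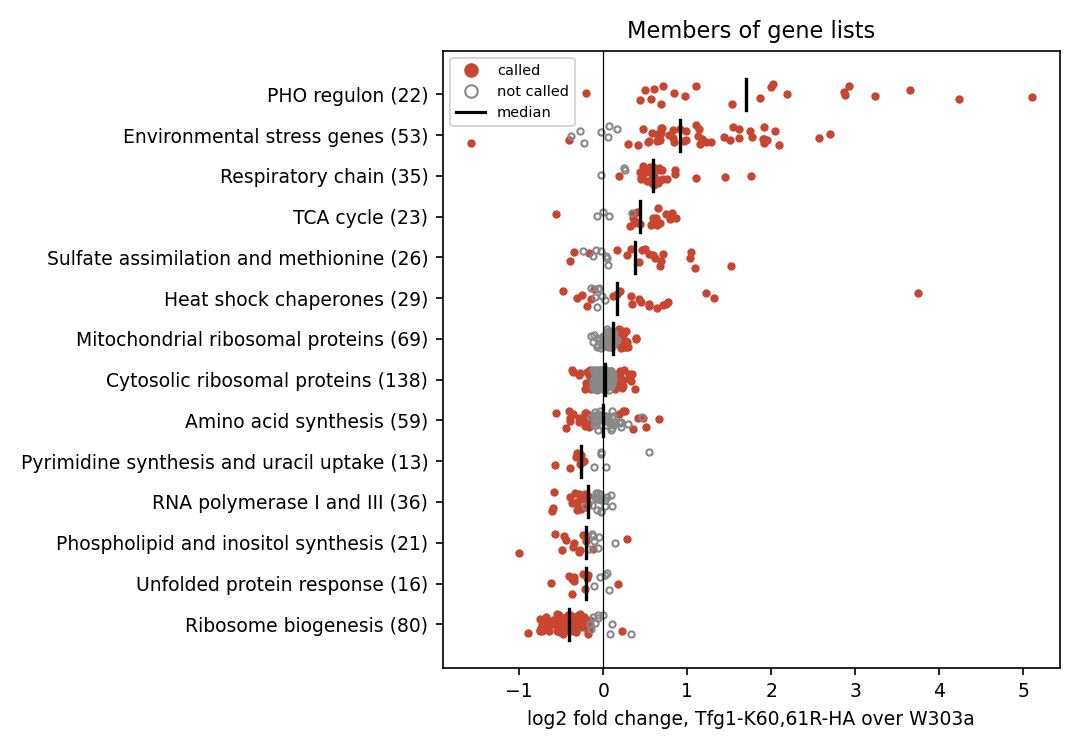
Log2 fold change of Tfg1-K60,61R-HA over W303a for each tested member of 14 gene lists, 1 point per gene, filled where called and open where not, with the median as a vertical bar and the number tested in parentheses. The PHO regulon has the highest median (1.70) and ribosome biogenesis the lowest (−0.41), and both ribosomal protein lists lie near 0.

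Sulfur assimilation was higher in part. Of 26 genes of sulfate assimilation and methionine synthesis 16 were higher and 3 lower, or 73.1% beside 49.4% of all genes. Their median was 0.38. *MET28* (1.53), for a cofactor of the activator Met4, was at 10.4 and 8.97 CPM in W303a and 34.2 and 21.3 in the mutant. *MET3* (1.04), ATP sulfurylase, was at 42.3 and 42.7 against 104 and 71.2 CPM, and *SUL2* (1.04), a sulfate permease, at 19.9 and 18.4 against 49.9 and 28.3 CPM. In each of these genes replicate 1 of the mutant was the higher library, and without it the values were 1.14, 0.74 and 0.57. *MET6* (−0.34), methionine synthase, and *SAM2* (−0.40), S-adenosylmethionine synthetase, were lower. Other amino acid pathways were mixed, with 8 of 59 genes higher and 16 lower, or 40.7% beside 49.4% of all genes. Their median was −0.01.

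The kynurenine pathway, which turns tryptophan into NAD, had 5 of 12 genes lower and 1 higher, or 50% beside 49.4% of all genes. *BNA2*, its first enzyme, was at 13.3 and 14.6 CPM in W303a and 4.30 and 7.42 in the mutant (−1.27). *BNA5* (−1.13) was at 68.6 and 67.7 against 22.2 and 40.4 CPM and *BNA4* (−0.90) at 55.7 and 62.1 against 29.7 and 33.6 CPM. *BNA3* (0.45), for a kynurenine aminotransferase, was the higher member. In aromatic amino acid breakdown *ARO9* (1.16), an aminotransferase, was at 15.5 and 18.7 CPM in W303a against 42.0 and 34.5 in the mutant. Of 27 genes under nitrogen catabolite repression 6 were higher and 13 lower, or 70.4% beside 49.4% of all genes. *CAR2* (1.77), for ornithine transaminase, and *PUT4* (1.01), the proline permease, rose, and *DAL80* (−0.68), a repressor, and *GAP1* (−0.30), the general amino acid permease, fell, the call for *GAP1* being lost without replicate 1 of the mutant.

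Of 29 genes of the iron regulon 13 were higher and 2 lower, or 51.7% beside 49.4% of all genes. Without replicate 1 of the mutant the median moved from 0.35 to 0.11. *FET3* (1.76), the multicopper oxidase of high-affinity iron uptake, was at 85.0 and 74.6 CPM in W303a, 381 and 238 in Tfg1-HA and 393 and 145 in the mutant. *TIS11* (1.89), which degrades mRNAs of iron-using proteins, was at 30.9 and 7.73 CPM in the mutant and 5.16 and 5.34 in W303a, and it was not called without replicate 1 (0.56). The zinc transporter gene *ZRT1* (0.55) was at 3269 and 3488 CPM in W303a and 5697 and 4188 in the mutant. The copper and zinc list had 4 of 10 genes higher and 0 lower (40%), with a median of 0.312, or 0.115 without replicate 1 of the mutant. The thiamine list had 0 higher and 2 lower of 21 (9.52%).

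Of 21 genes of phospholipid and inositol synthesis 13 were lower and 1 higher, or 66.7% beside 49.4% of all genes. Their median was −0.20. *INO1* (−0.998), inositol phosphate synthase, was at 93.5 and 114 CPM in W303a and at 71.0 and 32.4 in the mutant, and −1.69 without replicate 1. *ITR1* (−0.48), the inositol transporter, was at 1642 and 1636 CPM in W303a against 1174 and 1168. Of 32 ergosterol genes 14 were lower and 1 higher, a share of 46.9% called beside 49.4% of all genes. Of 16 genes of the unfolded protein response, which the kinase Ire1 starts through *HAC1*, 10 were lower and 1 higher (68.8% called). *LHS1* (−0.62) and *KAR2* (−0.41), chaperones of the endoplasmic reticulum, were at 249 and 257 and at 1814 and 1889 CPM in W303a, against 164 and 165 and 1409.6 and 1379 CPM in the mutant. Of 22 transporters of drugs and weak acids and their regulators 11 were lower and 2 higher (59.1% called). *QDR2* (−1.41), a multidrug transporter of the plasma membrane, was at 38.3 and 39.2 CPM in W303a and 14.6 and 14.5 in the mutant.

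Several genes at the lower end belonged to no list. *BSC1* was at 18.1 and 18.6 CPM in W303a and 3.19 and 5.40 in the mutant (−2.11), and *MGA1*, which resembles heat shock factors, at 21.1 and 19.4 against 5.06 and 5.28 CPM (−1.97). *SMP1* (−1.15), a transcription factor of the MADS family, was at 48.0 and 50.1 against 21.8 and 22.5 CPM. The libraries of the strains did not overlap for any of them, which the naming rule required of the lowest genes and 74.3% of all genes showed. *YER187W* (−2.23) and *YER188W* (−1.54) lie side by side near the end of chromosome V. At the upper end, *SRX1* (2.23), sulfiredoxin, and *YCL048W-A* (2.59) belonged to no list. *SED1* (0.46), a cell wall protein, was the most counted gene called higher, at 6536 and 6398 CPM in W303a and 9163 and 8596 in the mutant.

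Cell wall genes were higher more often than lower, with 22 and 6 of 42 (66.7% called beside 49.4% of all genes), though *TIR1*, *DAN1*, *TIR3* and *TIR4* are among them. Without replicate 1 of the mutant the numbers were 14 and 6. Of 35 proteasome genes 13 were higher and 0 lower, or 37.1%, below the 49.4% of all genes, and 8 and 2 without the length and GC trend. The widest differences were 0.36 in *PRE7* and *PUP1*. Of 30 autophagy genes 13 were higher and 4 lower (56.7%). *ATG39* (1.35), the receptor for autophagy of the nucleus, was at 4.89 and 4.81 CPM in W303a and 12.7 and 11.98 in the mutant. Of 30 genes of mating type a and the pheromone response 7 were higher and 5 lower (40%). *AGA2* (1.05), the adhesion subunit of a-agglutinin, was at 26.3 and 26.3 CPM in W303a and 53.4 and 55.3 in the mutant, and *MFA1* (0.97), for the a-factor pheromone, at 63.5 and 63.5 against 132 and 117 CPM. *MF(ALPHA)1*, the alpha-factor gene of alpha cells, was at 1.87 and 2.83 CPM in W303a and 0.537 and 0.650 in the mutant (−2.01).

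Beside the 49.4% called over all genes, the cell cycle list had 58.1% called (8 of 31 higher and 10 lower), and the list of ribonucleotide reductase and the DNA damage response 33.3% (4 of 18 higher and 2 lower). Of 41 meiosis and sporulation genes 9 were higher and 9 lower (43.9%). Among 43 tested Ty genes 7 were higher and 12 lower (44.2%), with a median of −0.051, or 0.062 without the length and GC trend. Nearly all have copies elsewhere, which makes them uncertain. *YLR410W-B* (−1.52), with 12 near-identical copies and an overlapping gene, was at 25.1 and 26.5 CPM in W303a and 8.91 and 9.11 in the mutant. Of 194 tested genes within 20 kb of a chromosome end 37 were higher and 41 lower, or 40.2%, below the 49.4% of all genes. Of 12 tested seripauperin genes, which share reads with one another, 2 were higher and 1 lower (25%). The 164 genes other than ribosomal protein genes that carry a SUMO peak in the study's own list had 42 higher and 54 lower, or 58.5%. Their median was −0.05. Over all genes 49.4% were called, and in the highest of 4 equal bins by mean count 57.3%. Genes of like level were not picked for this comparison. *IMD2* and *IMD3* are on this list.

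The distance from W303a can be set beside that of the tagged strain with unaltered lysines. The comparisons share the W303a libraries, so their calls are not independent and are given side by side only. Tfg1-HA differed from W303a in 2542 genes (43%), 1270 higher (21.5%) and 1272 lower (21.5%), with an SD of the log2 fold changes of 0.382 against 0.447 for the mutant. Beyond 1.5-fold, 126 genes (2.13%) were called for Tfg1-HA and 153 (2.59%) for the mutant. The values of the mutant include replicate 1, which stood apart. By RMS distance replicate 1 was 0.498 from W303a, while replicate 2 was 0.400 and Tfg1-HA 0.393 from it. Against W303a the log2 fold changes in Tfg1-HA and in the mutant were 3.75 and 4.23 for *PHO84*, 3.323 and 3.74 for *HSP26*, 2.05 and 2.09 for *TSL1*, −3.40 and −3.59 for *IMD2* and −2.31 and −1.97 for *MGA1*. The medians of the lists stood at 0.92 and 0.91 for the stress genes, 0.61 and 0.59 for the respiratory chain and −0.38 and −0.41 for ribosome biogenesis.

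For each gene, the difference between its log2 fold changes against W303a is the direct comparison of Tfg1-K60,61R-HA with Tfg1-HA, in which W303a cancels. This does not test whether one strain lies farther from W303a than the other. The direct comparison gave 0 genes at an adjusted p under 0.05 (edgeR quasi-likelihood test, smallest adjusted p 0.42). At an unadjusted p under 0.05 there were 572 genes (9.68%), edgeR's likelihood ratio test called 3, and DESeq2 called 36 of the 423 genes to which it gave an adjusted p. The confidence interval lay within 1.5-fold for 5381 genes (91.1%). Among genes called between the mutant and W303a, the widest differences from Tfg1-HA were those of *TIR1* (7.09), *DAN1* (6.65), *ANB1* (6.44), *PHO89* (1.32) and *TIR4* (1.31), and in each of them replicate 1 of the mutant was the highest of all libraries. Without replicate 2 of the mutant 446 genes were called in this comparison, and without replicate 1 the number was 0. The number therefore rested on which mutant library was used. For 1 gene taken alone, the smallest two-sided p that an exact permutation test allows with 2 libraries per strain is 0.333.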

How the data were processed

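RNA-seq libraries were prepared from 2 cultures of each of 4 strains, with poly(A) selection and a directional kit. According to the submitters' processing notes, the authors aligned reads to sacCer3 with HISAT2 2.1.0, counted them with Subread 2.0.0 and used edgeR 3.32.1. The deposited table holds raw counts per gene. Per the file header, featureCounts summed fragments over exons of the RefSeq annotation, with no strand option and without reads that fit several places or several genes, so near-identical and overlapping genes are uncertain. Other deposited tables hold the authors' own comparisons (log2 fold changes, likelihood ratios, p-values) and were not used.

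Counts were analysed with edgeR 4.0.16 in R 4.3.3: filterByExpr kept 5909 genes, libraries were scaled by TMM, and the quasi-likelihood test with Benjamini-Hochberg adjustment was fitted to all 8 libraries with a mean per strain. A gene was called at an adjusted p under 0.05, and beyond 1.5-fold by glmTreat. DESeq2 1.42.0 was an alternative. Changes of scaling, filter, test, replicate block and left-out libraries were tried, and the scripts were tested on simulated data. Total counts of 26674458 to 34614232 per library limit precision only for low genes, and p-values measure the spread between 2 cultures per strain. Promoters were read from the RefSeq genome of build R64, whose gene coordinates matched those of the table for 5983 of 5995 genes found in both, and were searched on both strands. Named genes are the TFIIF, SUMO and marker genes; the 15 highest and 15 lowest called genes that averaged 50 counts or more, with libraries that did not overlap and no near-identical copy; up to 4 called members of each list; the 5 called genes with the widest difference from Tfg1-HA; the 5 with the smallest p; and the most counted gene called in each direction. Other genes were named for their role after their values were seen. The members and the gene lists were chosen with earlier results of these data known.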

Additional observations from a re-analysis of the deposited data

How the results depend on the processing

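Of 200 genes named or tested by the naming rule, 189 were called, which follows from a rule that mostly took called genes. Of the 200, 146 kept their direction and their call under every alternative tried. That number does not speak for all genes. Between Tfg1-K60,61R-HA and W303a the number of calls ranged from 1959 without replicate 2 of W303a to 3125 without replicate 2 of the mutant. The number beyond the bound was 967 at 1.2-fold and 48 at 2-fold, and it ranged from 87 to 260 when 1 library was left out. The number of genes with an interval inside the bound was 1902 at 1.2-fold. Between Tfg1-HA and W303a the number of calls ranged from 1560 to 1921 when 1 library was left out, and scaling by library size alone gave 1517 higher and 1027 lower. Between the mutant and Tfg1-HA, the likelihood ratio test called 3 genes and DESeq2 36, and leaving out 1 library gave 0 to 446. Of the genes whose sign changed, the log2 fold changes without replicate 1 and without replicate 2 of the mutant were 0.138 and −0.07 for *URA3*, −0.048 and 0.416 for *HIS3*, −1.18 and 6.08 for *ANB1*, −0.307 and 2.19 for *TIR2*, −1.17 and 1.82 for *AAC3*, −0.041 and 0.382 for *AUS1* and −0.046 and 0.418 for *UPC2*. With each library's trend with length and GC content removed, *TAF14* stood at −0.009, *SMT3* at −0.026, *URA3* at −0.083 and *HIS3* at −0.033. The cause was not tested.

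The replicate numbers of the labels did not pair the samples. Deviations of same-numbered libraries correlated at 0.044 between W303a and the mutant and at 0.118 between Tfg1-HA and the mutant. With the replicate block 2847 genes were called between the mutant and W303a, 2793 of them also called without it, 150 beyond 1.5-fold, 2480 between Tfg1-HA and W303a and 0 between the mutant and Tfg1-HA.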
